A study of Macaca mulatta with 14 samples.

Results

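The comparison described here sets rhesus macaque (Macaca mulatta) cells on day 5 of conversion to neuroepithelial stem cells (RF-iN-d5, called day 5 cells) against the fibroblasts that the conversion began with (RF-P3). The study followed this conversion through 7 cell lines with total RNA sequencing, with 2 libraries for each line, or 14 in all, and the 4 libraries of RF-iN-d5 and RF-P3 are used here. All genes with an FPKM (fragments per kilobase of transcript, scaled for the depth of the library) of 1 or more in at least 2 of the 14 libraries were described. This kept 15024 of the 33688 loci that held values. In the deposited table the values of 28445 loci (84.3%) stand 1 row away from their gene names, and they were moved back to their names first.

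RF-iN-d5 cells were fibroblasts infected with pMXs retroviruses that carried the rhesus genes of OCT4 (gene symbol POU5F1), SOX2 and KLF4, replated on laminin on day 3 after infection and collected on day 5 in induction medium. This medium was serum-free, with B27 and N2 supplements and vitamin C, and held Y27632 (5 µM), an inhibitor of the kinase ROCK, CHIR99021 (3 µM), an inhibitor of GSK3 that mimics WNT signalling, SB431542 (5 µM), an inhibitor of the TGF-beta type I receptor, valproic acid, an inhibitor of histone deacetylases, and bFGF (10 ng/ml). Y27632 was withdrawn on day 5 itself, and valproic acid later. RF-P3 cells were the same ear skin fibroblasts at passage 3, uninfected, in DMEM with serum. The fibroblasts came from 2 male fetuses of embryonic day 65 and the samples are not assigned to a fetus, so both lines may mix cells of both fetuses. Day 5 was counted from the start of the conversion protocol, and whether that start was the infection or the replating is not given in the sources used here. The effects of the factors, the compounds, the medium, the replating and the time cannot be told apart, since RF-iN-d5 and RF-P3 differ in all of them.

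Dermal fibroblasts grown in serum make and remodel collagen matrix, and serum, TGF-beta and stiff plastic hold them in an activated state with actin stress fibres. In conversion with these factors, fibroblast programs are usually lost before the genes of the new cell type come on. WNT, FGF, BMP and TGF-beta signals each have well known target genes, among them their own inhibitors, so that target levels are commonly read as a record of signalling.

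Within a line, the libraries lay closer together than sampling noise alone would place them and were counted as 1 sample, so that no test was possible and every difference below is a description of 1 sample against 1 sample. The study calls both libraries of a line biological replicates. A difference is log2(FPKM + 1) of the RF-iN-d5 average minus that of the RF-P3 average, a scale that makes the changes of genes at low FPKM look smaller than they are, and a gene was counted as higher or lower from 2-fold (a difference of 1 or -1). The median gene differed by 0.02 between the libraries of RF-iN-d5 and by 0.02 between those of RF-P3, on the log2 scale, and of the 2673 genes counted as higher or lower, 2672 had libraries that did not overlap between the lines, as did 93.7% of all genes described. The study gives depth in reads only as a range over all profiles, not for each library. The steps between low FPKM values put RF-iN-d5 at 1.41 times the depth of RF-P3. Summed over all loci, a library held 612792 or 613649 FPKM in day 5 cells, and 696408 or 697883 FPKM in fibroblasts. These are bulk samples, in which fewer cells of a type and less RNA per cell cannot be told apart.

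Of the 15024 genes, 1408 (9.37%) were at least 2-fold higher in day 5 cells and 1265 (8.42%) were at least 2-fold lower, and 12351 lay between. The median difference of all genes was 0. With each library rescaled to the same total FPKM, the median difference of all genes moved to 0.14, and the split became 1691 higher and 977 lower (63.4% higher, against 52.7% higher in the deposited scaling). Quantile normalization gave 1228 higher and 1289 lower (48.8% higher), so that the balance between both directions depends on the scaling. At 16-fold or more, 44 genes were higher, of which 12 had only a LOC symbol, and 25 were lower, of which 2 had only a LOC symbol.

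**Figure D1:**
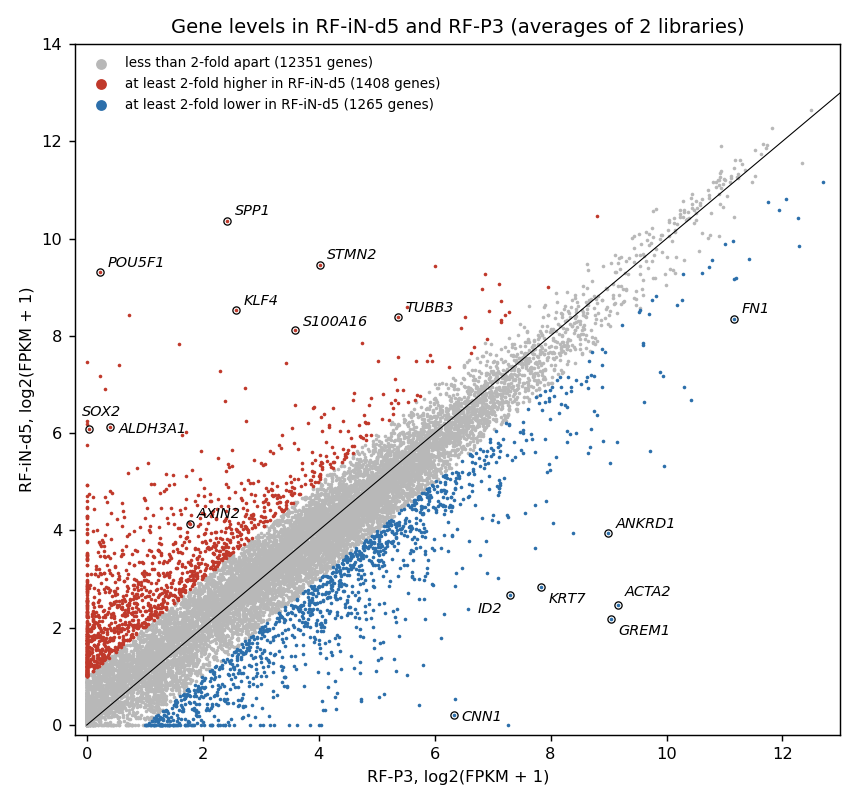
Level of each of the 15024 genes in RF-iN-d5 (vertical axis) and RF-P3 (horizontal axis), both as log2(FPKM + 1) of the average of 2 libraries, with 1408 genes at least 2-fold higher in RF-iN-d5 in red, 1265 at least 2-fold lower in blue and the line of equal levels in black. POU5F1 and SPP1 lie farthest above the line and GREM1 and ACTA2 farthest below it among the labelled genes.

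The introduced factors were among the largest increases. POU5F1, the pluripotency factor OCT4, had 627 and 635 FPKM in day 5 cells, against 0.175 and 0.173 FPKM in fibroblasts. SOX2, a factor of neural and pluripotent stem cells, had 66.9 and 67.3 FPKM in day 5 cells, against 0.0284 and 0.0282 FPKM in fibroblasts. KLF4, a zinc finger factor that skin epithelium also uses, had 368 and 366 FPKM in day 5 cells, against 4.68 and 5.26 FPKM in fibroblasts. All 3 were far above the fibroblast level, and KLF4 alone was above 1 FPKM in fibroblasts. RNA from the viruses and from the cells' own genes cannot be told apart in these values. Per length, POU5F1 stood highest of the 3 in day 5 cells and SOX2 lowest.

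Other genes of the pluripotency network were low on day 5. Of 21 listed members found in the table, 11 passed the filter, 5 of these were higher and 1 was lower, with a median difference of 0.57. L1TD1, an RNA-binding protein of pluripotent cells, had 27.9 and 27.7 FPKM in day 5 cells, against 1.68 and 1.46 FPKM in fibroblasts. UTF1, a chromatin factor, had 10.1 and 10.2 FPKM in day 5 cells and was listed at 0 in fibroblasts. SALL4, a zinc finger partner of OCT4, had 3.11 and 3.00 FPKM in day 5 cells and was listed at 0 in fibroblasts. NANOG, the central factor of the network, did not pass the filter and averaged 0.489 FPKM in day 5 cells and was listed at 0 in fibroblasts. ZFP42 (REX1), a classical marker of pluripotent cells, went the other way, with 5.40 and 5.19 FPKM in day 5 cells, against 22.1 and 21.4 FPKM in fibroblasts. DNMT3B, a de novo DNA methyltransferase, averaged 2.24 FPKM in day 5 cells and 2.35 FPKM in fibroblasts.

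The labelled cell type was checked on marker lists. All 15 fibroblast markers found in the table were above 1 FPKM in both lines, and their summed level was between 3702 and 3706 FPKM in day 5 cells and between 7202 and 7220 FPKM in fibroblasts. Most of this drop lay in COL1A1 and COL1A2. COL1A1 averaged 573 FPKM in day 5 cells and 2307 FPKM in fibroblasts, and COL1A2 averaged 987 FPKM in day 5 cells and 2276 FPKM in fibroblasts. THY1, COL6A1, COL6A3 and TWIST1 lay above their fibroblast averages, and the other markers lay below theirs. Of 10 neuroepithelial markers, 3 reached 1 FPKM in day 5 cells and 1 did in fibroblasts, with sums of 131 and 131 FPKM in day 5 cells, against 60.9 and 61.3 FPKM in fibroblasts, most of it nestin. The 5 keratinocyte markers summed to 7.07 and 7.44 FPKM in day 5 cells, against 0.191 and 0.192 FPKM in fibroblasts. The 5 endothelial markers, mostly TEK, summed to 29.7 and 30.0 FPKM in day 5 cells, against 2.51 and 2.56 FPKM in fibroblasts. TEK alone averaged 27.1 FPKM in day 5 cells and 1.53 FPKM in fibroblasts. The 3 skeletal muscle markers found summed to 0.439 and 0.475 FPKM in day 5 cells, against 7.46 and 7.80 FPKM in fibroblasts. Epithelial markers, mostly KRT8, summed to 43.2 and 43.9 FPKM in day 5 cells, against 256 and 256 FPKM in fibroblasts, and pluripotent markers, mostly ZFP42, to 6.03 and 6.26 FPKM in day 5 cells, against 21.8 and 22.4 FPKM in fibroblasts. Melanocyte and Schwann cell markers, mostly PMEL, summed to 20.7 and 20.8 FPKM in day 5 cells, against 19.7 and 19.99 FPKM in fibroblasts. The part of such cells in the results was not tested. Macrophage markers stayed under 6 FPKM in sum in every library.

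Most genes of the contractile apparatus were lower on day 5. Of 27 described genes for actins, myosins and their partners, 20 were lower in day 5 cells, 1 was higher and 6 lay between, with a median difference of -1.68, beside 0 for all genes. ACTA2, the smooth muscle actin that marks activated fibroblasts (myofibroblasts), had 4.62 and 4.49 FPKM in day 5 cells, against 570.5 and 569 FPKM in fibroblasts, a difference of -6.68. CNN1, the actin-binding protein calponin, had 0.151 and 0.150 FPKM in day 5 cells, against 80.5 and 79.8 FPKM in fibroblasts, a difference of -6.14. Both genes were abundant in the fibroblasts, and on day 5 CNN1 was under 1 FPKM and ACTA2 under 5 FPKM. TPM1, a tropomyosin of the actin filament, had 102 and 102 FPKM in day 5 cells, against 1373 and 1366 FPKM in fibroblasts. TAGLN, the actin-bundling protein transgelin, had 122 and 124 FPKM in day 5 cells, against 1268 and 1259.8 FPKM in fibroblasts. The myosin light chain MYL9, part of the motor that ROCK activates, had 35.9 and 35.3 FPKM in day 5 cells, against 243 and 243 FPKM in fibroblasts, and the heavy chain MYH9 averaged 123 FPKM in day 5 cells and 474 FPKM in fibroblasts. CSRP2, a LIM protein of smooth muscle, was the 1 higher member, with 76.5 and 76.4 FPKM in day 5 cells, against 35.7 and 36.5 FPKM in fibroblasts. ACTN4, a non-muscle actinin, did not reach 2-fold and averaged 140.0 FPKM in day 5 cells and 194 FPKM in fibroblasts.

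The same direction held for sarcomeric genes. Of 11 skeletal muscle genes described, 10 were lower in day 5 cells and none was higher, with a median difference of -2.73. ACTA1, the skeletal muscle actin, had 2.40 and 2.55 FPKM in day 5 cells, against 69.2 and 67.3 FPKM in fibroblasts. ACTC1, the cardiac actin, had 3.85 and 3.90 FPKM in day 5 cells, against 71.3 and 70.6 FPKM in fibroblasts. TNNT2 and TNNC1, subunits of troponin, averaged 1.62 FPKM in day 5 cells and 32.6 FPKM in fibroblasts for TNNT2, and 3.52 FPKM in day 5 cells and 56.0 FPKM in fibroblasts for TNNC1. The myogenic regulators MYOG and MYOD1, which define the muscle lineage, were low in both lines: MYOG had 0.335 and 0.3 FPKM in day 5 cells, against 5.15 and 5.02 FPKM in fibroblasts. MYOD1 had 0.0667 and 0.0663 FPKM in day 5 cells, against 2.44 and 2.24 FPKM in fibroblasts. TNNC2, the troponin C of fast fibres, was listed at 0 in both libraries of day 5 cells and had 15.4 and 14.8 FPKM in fibroblasts. The part of muscle cells in these values was not tested.

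Of 14 genes for cofactors of SRF and small GTPase effectors, which control this program, 4 were lower in day 5 cells, none was higher and the median difference was -0.47. SRF, the factor that drives many contractile genes, averaged 17.8 FPKM in day 5 cells and 26.9 FPKM in fibroblasts, and did not reach 2-fold. Its actin-sensing cofactor MKL1 averaged 5.58 FPKM in day 5 cells and 13.1 FPKM in fibroblasts. The kinases that Y27632 inhibits are coded by ROCK2, which averaged 11.7 FPKM in day 5 cells and 33.3 FPKM in fibroblasts, and ROCK1, which averaged 22.1 FPKM in day 5 cells and 28.9 FPKM in fibroblasts. The 4 lower genes were MKL1, ROCK2, DIAPH3, a formin that extends actin filaments, at 8.04 FPKM in day 5 cells and 34.8 FPKM in fibroblasts, and ARHGAP29, a GTPase-activating protein, at 13.5 FPKM in day 5 cells and 49.2 FPKM in fibroblasts.

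YAP and TAZ report cell spreading and tension to the nucleus. Of 16 genes described for these factors, their targets and partners, 8 were lower in day 5 cells and none was higher. ANKRD1, a target that codes for a muscle ankyrin repeat protein, had 14.5 and 14.3 FPKM in day 5 cells, against 510.2 and 507 FPKM in fibroblasts. CTGF (CCN2), a matricellular growth factor, had 41.3 and 42.1 FPKM in day 5 cells, against 133 and 133 FPKM in fibroblasts. The factors themselves did not reach 2-fold. YAP1 averaged 31.1 FPKM in day 5 cells and 62.5 FPKM in fibroblasts, just short of it, and WWTR1 (TAZ) averaged 30.1 FPKM in day 5 cells and 25.9 FPKM in fibroblasts.

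Most TGF-beta targets were lower too, with exceptions. Of 18 described targets, 10 were lower, 2 were higher and 6 lay between, and the median difference was -1.37. IGFBP3, which binds insulin-like growth factors, had 49.2 and 48.5 FPKM in day 5 cells, against 846 and 841 FPKM in fibroblasts. SMAD7, the inhibitory SMAD that the pathway induces against itself, had 4.01 and 3.95 FPKM in day 5 cells, against 18.99 and 18.8 FPKM in fibroblasts, and the collagen-binding membrane protein LRRC15 averaged 0.876 FPKM in day 5 cells and 18.5 FPKM in fibroblasts. The libraries of the lines did not overlap for any of these genes, which also held for 93.7% of all genes described. PMEPA1, another inhibitor that TGF-beta induces, went the other way, with 38.2 and 38.6 FPKM in day 5 cells, against 4.45 and 4.45 FPKM in fibroblasts, as did BHLHE40, a basic helix-loop-helix repressor, with 114 and 112 FPKM in day 5 cells, against 23.7 and 23.4 FPKM in fibroblasts. TGFBI, named for its induction by TGF-beta, averaged 295 FPKM in day 5 cells and 331 FPKM in fibroblasts.

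Among 16 genes for TGF-beta ligands, receptors and SMADs, 2 were higher (12.5%, against 9.37% of all genes). As many were lower (12.5%, against 8.42% of all genes), so both shares were near those of all genes. The ligands differed in direction: TGFB1 had 18.0 and 16.1 FPKM in day 5 cells, against 39.5 and 32.5 FPKM in fibroblasts, while TGFB2 had 21.8 and 21.5 FPKM in day 5 cells, against 3.91 and 4.02 FPKM in fibroblasts. The type II receptor TGFBR2 had 102 and 102 FPKM in day 5 cells, against 39.1 and 38.7 FPKM in fibroblasts, and the type I receptor TGFBR1, which SB431542 blocks, averaged 44.0 FPKM in day 5 cells and 39.8 FPKM in fibroblasts. SMAD2 and SMAD3, which carry the signal, averaged 32.2 FPKM in day 5 cells and 33.3 FPKM in fibroblasts for SMAD2, and 13.4 FPKM in day 5 cells and 24.3 FPKM in fibroblasts for SMAD3.

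Genes of the BMP pathway lay on both sides. Of 27 genes described, 11 were lower and 6 higher. The ID genes, which code for inhibitors of basic helix-loop-helix factors and are direct BMP targets, were all lower. ID1 had 11.5 and 11.6 FPKM in day 5 cells, against 213 and 211 FPKM in fibroblasts. ID2 had 5.26 and 5.50 FPKM in day 5 cells, against 155 and 158 FPKM in fibroblasts. ID3 had 17.0 and 16.8 FPKM in day 5 cells, against 262 and 264 FPKM in fibroblasts. ID4, the least abundant of them in fibroblasts, had 2.2 and 2.27 FPKM in day 5 cells, against 32.1 and 32.2 FPKM in fibroblasts. SMAD6, the inhibitory SMAD of this pathway, averaged 3.34 FPKM in day 5 cells and 12.1 FPKM in fibroblasts. GREM1, a secreted antagonist that binds BMPs, had 3.51 and 3.56 FPKM in day 5 cells, against 529 and 527 FPKM in fibroblasts, the largest decrease of all genes with a name and at least 20 FPKM. BAMBI, a decoy receptor that BMPs induce, was higher, at 3.45 FPKM in day 5 cells and 0.849 FPKM in fibroblasts. The ligands BMP2, BMP4 and BMP7 were higher too, while BMP6, another ligand, averaged 0.685 FPKM in day 5 cells and 0.345 FPKM in fibroblasts. BMP4 had 20.8 and 21.02 FPKM in day 5 cells, against 1.16 and 0.958 FPKM in fibroblasts. BMP2 had 8.58 and 8.40 FPKM in day 5 cells, against 0.397 and 0.394 FPKM in fibroblasts. CHRDL1, a chordin-like antagonist, averaged 9.88 FPKM in day 5 cells and 1.73 FPKM in fibroblasts. BMPR1A, a type I receptor, averaged 15.3 FPKM in day 5 cells and 22.1 FPKM in fibroblasts.

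**Figure D2:**
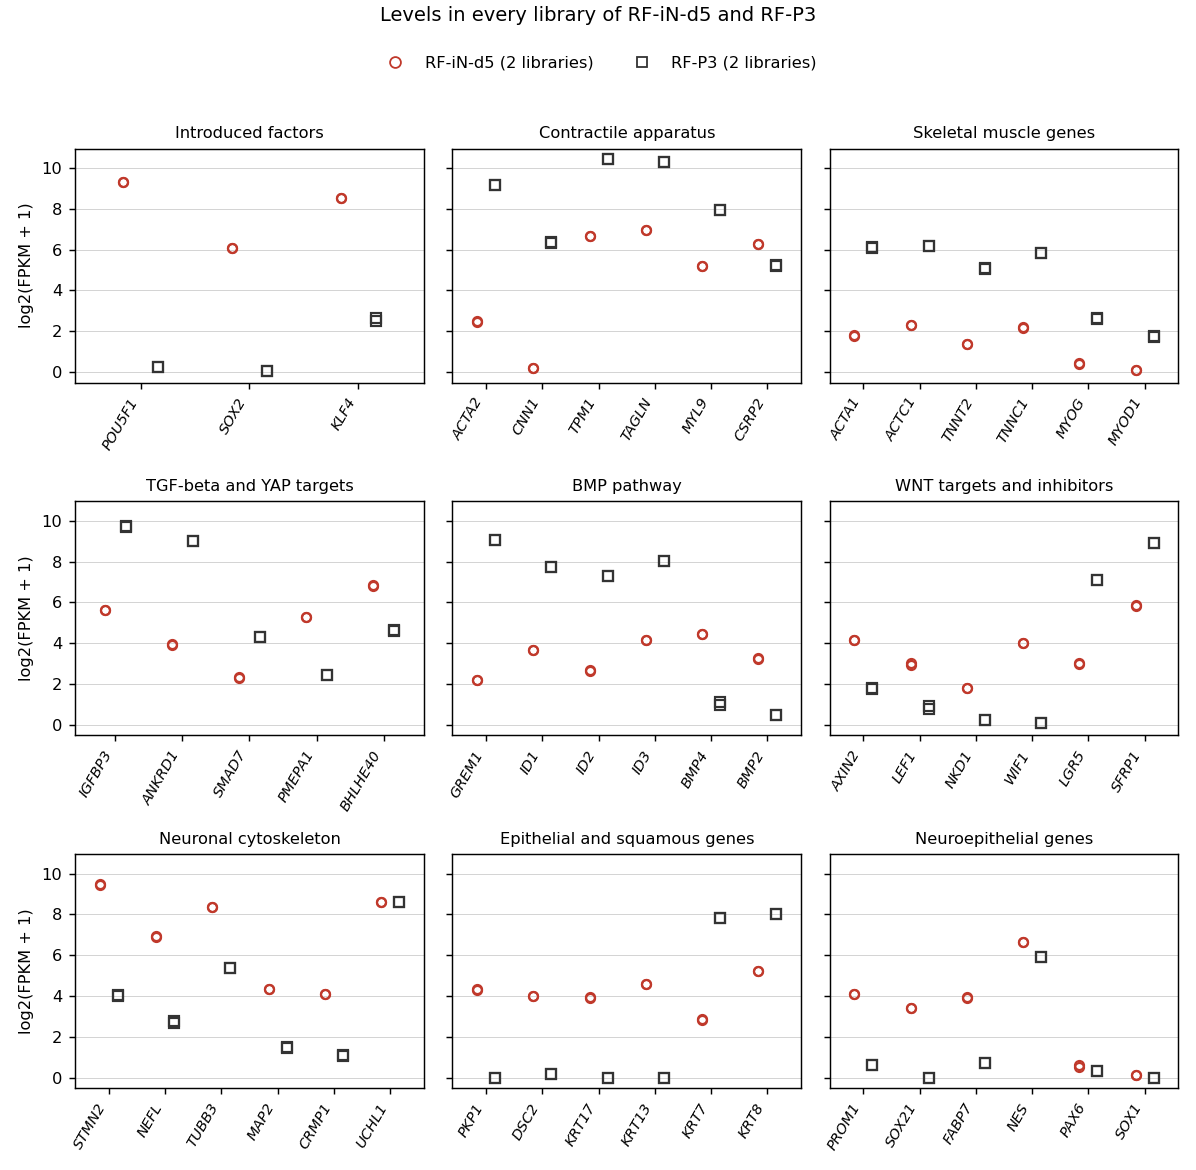
Levels of 50 genes in 9 groups as log2(FPKM + 1), with circles for the 2 libraries of RF-iN-d5 and squares for the 2 libraries of RF-P3. The libraries of a line nearly coincide, and the contractile (other than CSRP2), muscle and ID genes shown lie lower in RF-iN-d5. The genes shown under neuronal cytoskeleton lie higher, other than UCHL1. In the full neuronal list 4 genes, INA among them, were lower, and these are not shown.

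Matrix genes followed no single direction. Of 22 collagen genes described, 5 were lower (22.7%, against 8.42% of all genes) and 15 lay between. The other 2 were higher (9.09%, about the share of 9.37% of all genes). COL1A1, the main chain of the fibrillar collagen of skin, had 574 and 573 FPKM in day 5 cells, against 2309 and 2305 FPKM in fibroblasts, and its partner COL1A2 had 987 and 986 FPKM in day 5 cells, against 2277 and 2275 FPKM in fibroblasts. COL3A1, the other major skin collagen, averaged 500.4 FPKM in day 5 cells and 766 FPKM in fibroblasts. COL6A1, a chain of beaded filaments, averaged 427 FPKM in day 5 cells and 328 FPKM in fibroblasts. The basement membrane chains COL4A5 and COL4A1 did not move together: COL4A5 had 15.1 and 14.7 FPKM in day 5 cells, against 0.782 and 0.728 FPKM in fibroblasts. COL4A1 averaged 85.1 FPKM in day 5 cells and 125 FPKM in fibroblasts. Enzymes that crosslink or process collagen were more uniform, with 9 of 18 lower, 1 higher and a median of -1.09. LOXL2, a lysyl oxidase that crosslinks collagen, had 18.1 and 18.5 FPKM in day 5 cells, against 152 and 152 FPKM in fibroblasts. LOX, its founding relative, averaged 49.6 FPKM in day 5 cells and 178 FPKM in fibroblasts, while PLOD1, a lysyl hydroxylase, averaged 45.4 FPKM in day 5 cells and 50.8 FPKM in fibroblasts. BMP1, the protease that trims procollagen, was the higher one, at 38.1 FPKM in day 5 cells and 18.1 FPKM in fibroblasts.

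Among 22 genes for elastic fibre and matricellular proteins, 10 were lower and 5 higher. FN1, fibronectin, had 324 and 326 FPKM in day 5 cells, against 2306 and 2297 FPKM in fibroblasts. THBS1, thrombospondin 1, had 41.2 and 40.8 FPKM in day 5 cells, against 521 and 520.1 FPKM in fibroblasts. MGP, a matrix protein that hinders calcification, averaged 19.4 FPKM in day 5 cells and 187 FPKM in fibroblasts. SPP1, osteopontin, a secreted adhesion and cytokine-like protein, had 1321 and 1319 FPKM in day 5 cells, against 4.58 and 4.17 FPKM in fibroblasts, the second largest increase among genes with a name and at least 20 FPKM. TNXB, a tenascin that organises collagen, averaged 10.4 FPKM in day 5 cells and 0.709 FPKM in fibroblasts. FBN2, a fibrillin of fetal tissue, averaged 65.1 FPKM in day 5 cells and 15.6 FPKM in fibroblasts. The proteoglycan BGN, biglycan, had 1.34 and 1.34 FPKM in day 5 cells, against 55.2 and 54.2 FPKM in fibroblasts, whereas GPC3, a glypican on the cell surface, had 48.2 and 48.5 FPKM in day 5 cells, against 3.20 and 2.61 FPKM in fibroblasts. Of 28 matrix proteases and inhibitors, 6 were lower and 5 higher, with a median difference of -0.12. The protease inhibitor TIMP1 was higher, with 1416 and 1413 FPKM in day 5 cells, against 446 and 442 FPKM in fibroblasts. The collagenase MMP13 was higher too and averaged 11.0 FPKM in day 5 cells and 0.826 FPKM in fibroblasts. The inhibitor TIMP2 was lower and averaged 115 FPKM in day 5 cells and 326 FPKM in fibroblasts.

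Of 16 integrins, 6 were lower (37.5%, against 8.42% of all genes) and 2 higher (12.5%, against 9.37% of all genes). ITGA11, a collagen receptor chain of fibroblasts, had 3.96 and 3.91 FPKM in day 5 cells, against 34.5 and 33.8 FPKM in fibroblasts, and the common chain ITGB1 had 348 and 346 FPKM in day 5 cells, against 828 and 824 FPKM in fibroblasts. The higher ones were ITGA6, with 79.5 and 79.3 FPKM in day 5 cells, against 15.3 and 15.6 FPKM in fibroblasts, and ITGB4, with 12.8 and 12.2 FPKM in day 5 cells, against 0.170 and 0.145 FPKM in fibroblasts, which together form the laminin receptor of epithelial hemidesmosomes. Of 13 genes for laminins and basement membrane, 3 were higher, with LAMA5, a laminin chain, at 28.1 FPKM in day 5 cells and 5.54 FPKM in fibroblasts, and 2 were lower, NID1 and NID2, which link laminin to collagen, at 117 FPKM in day 5 cells and 253 FPKM in fibroblasts for NID1, and 12.3 FPKM in day 5 cells and 26.5 FPKM in fibroblasts for NID2.

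Genes of fibroblast identity were lower in part. Of 24 described, 7 were lower, 1 was higher and 16 lay between. PRRX1, a homeobox factor of mesenchyme, had 46.0 and 46.0 FPKM in day 5 cells, against 152 and 151 FPKM in fibroblasts. PDGFRA, the receptor for PDGF, had 20.6 and 20.1 FPKM in day 5 cells, against 58.4 and 58.0 FPKM in fibroblasts. DCN, the proteoglycan decorin, averaged 123 FPKM in day 5 cells and 324 FPKM in fibroblasts. Others did not reach 2-fold. TWIST1, a mesenchymal factor, averaged 46.5 FPKM in day 5 cells and 45.7 FPKM in fibroblasts. LUM, the proteoglycan lumican, averaged 146 FPKM in day 5 cells and 156 FPKM in fibroblasts. VIM, the mesenchymal intermediate filament vimentin, averaged 1386 FPKM in day 5 cells and 2294 FPKM in fibroblasts. THY1, a surface glycoprotein of fibroblasts and neurons, was higher, with 358 and 361 FPKM in day 5 cells, against 156 and 154 FPKM in fibroblasts. Of 17 mesenchymal transition factors and their targets, 6 were lower and none was higher, among them SNAI2, a repressor of E-cadherin, with 28.0 and 28.7 FPKM in day 5 cells, against 80.0 and 80.9 FPKM in fibroblasts, and CDH2 (N-cadherin), with 30.4 and 30.4 FPKM in day 5 cells, against 141 and 139 FPKM in fibroblasts. ZEB1 and ZEB2, repressors of epithelial genes, averaged 16.3 FPKM in day 5 cells and 18.0 FPKM in fibroblasts for ZEB1, and 10.5 FPKM in day 5 cells and 11.97 FPKM in fibroblasts for ZEB2.

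Many genes of cell division were lower. Of 36 DNA replication genes, 18 were lower and none was higher, with a median difference of -1.03. Of 34 mitosis genes, 22 were lower and none was higher, with a median of -1.11. MCM7, a subunit of the replicative helicase, had 31.3 and 31.3 FPKM in day 5 cells, against 110.4 and 109 FPKM in fibroblasts. CDC6, which loads that helicase, had 9.62 and 9.56 FPKM in day 5 cells, against 37.1 and 37.6 FPKM in fibroblasts. MKI67, the Ki-67 antigen of cycling cells, had 31.5 and 31.5 FPKM in day 5 cells, against 80.5 and 80.9 FPKM in fibroblasts. CDK1, the kinase of mitotic entry, had 33.9 and 33.5 FPKM in day 5 cells, against 85.1 and 84.4 FPKM in fibroblasts. ANLN, an actin-binding protein of the cleavage furrow, had 31.6 and 31.8 FPKM in day 5 cells, against 138 and 137 FPKM in fibroblasts. PCNA, the polymerase clamp, averaged 258 FPKM in day 5 cells and 391 FPKM in fibroblasts. The S-phase transcription factor E2F1 averaged 5.68 FPKM in day 5 cells and 24.7 FPKM in fibroblasts. FOXM1, which drives mitotic genes, averaged 13.3 FPKM in day 5 cells and 39.1 FPKM in fibroblasts. CCND1, cyclin D1, averaged 163 FPKM in day 5 cells and 201 FPKM in fibroblasts, and MYC, a growth factor-induced regulator and WNT target, was higher, with 178 and 177 FPKM in day 5 cells, against 60.4 and 61.2 FPKM in fibroblasts.

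Targets of the tumour suppressor p53 lay on the other side. Of 22 described, 11 were higher and none was lower, and the median was 1.10. CDKN1A, the kinase inhibitor p21 that halts the cycle, had 420.2 and 418 FPKM in day 5 cells, against 141 and 140.0 FPKM in fibroblasts. MDM2, the ligase that degrades p53, had 74.3 and 73.2 FPKM in day 5 cells, against 26.9 and 27.1 FPKM in fibroblasts. BTG2, an antiproliferative factor, had 35.2 and 33.8 FPKM in day 5 cells, against 1.97 and 1.63 FPKM in fibroblasts. GADD45A, a stress sensor, had 178 and 177 FPKM in day 5 cells, against 49.6 and 50.7 FPKM in fibroblasts. The apoptosis genes BAX and BBC3 averaged 154 FPKM in day 5 cells and 136 FPKM in fibroblasts for BAX, and 8.97 FPKM in day 5 cells and 5.33 FPKM in fibroblasts for BBC3, and neither reached 2-fold.

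**Figure D3:**
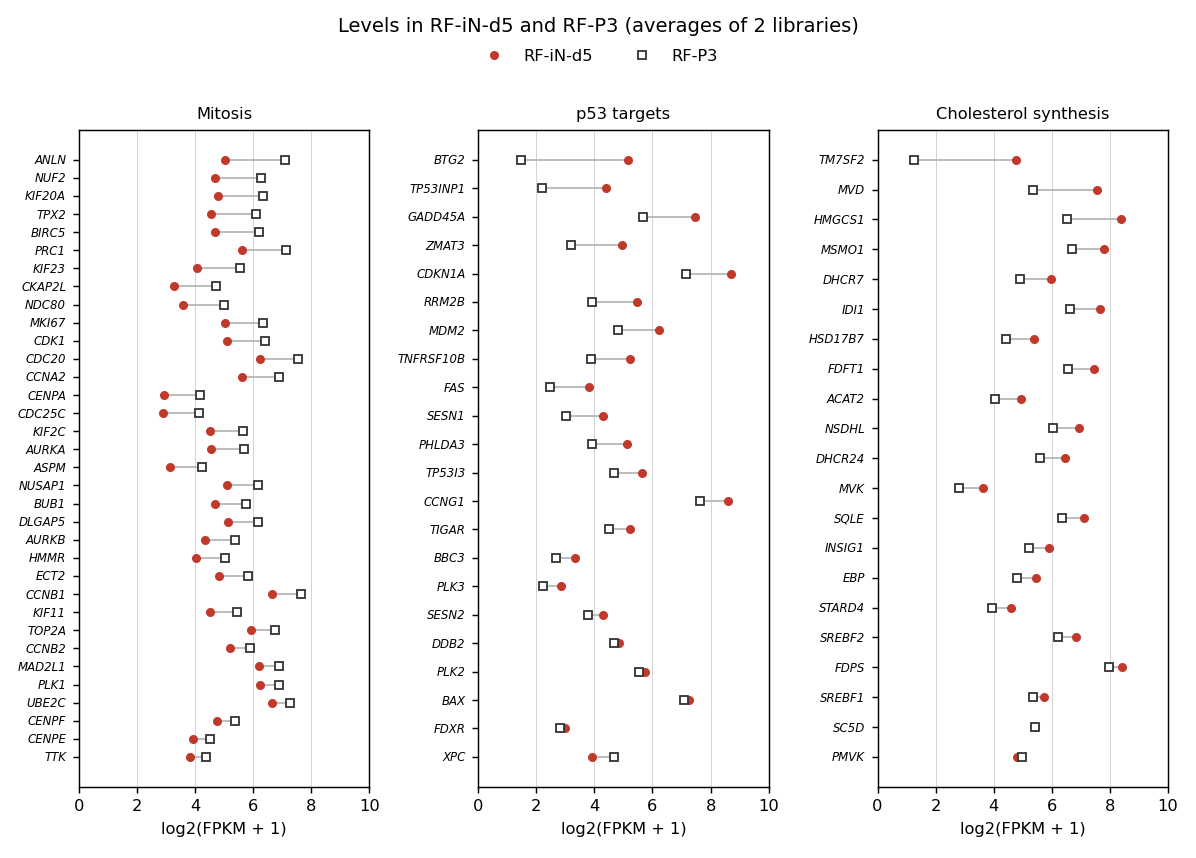
Levels of described genes of the lists for mitosis (34 genes), p53 targets (22) and cholesterol synthesis (21 of 24), as log2(FPKM + 1) of the average of 2 libraries, with filled circles for RF-iN-d5 and open squares for RF-P3 joined by a line for each gene. All 34 mitosis genes lie lower in RF-iN-d5, 21 of 22 p53 targets lie higher, and the cholesterol genes shown other than PMVK lie at or above the RF-P3 level.

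Genes of WNT output differed by gene, in a list that mixes targets with feedback genes, secreted inhibitors and nuclear components of the pathway. Of 26 genes described, 11 were higher and 5 lower, with a median of 0.70. These counts are therefore not those of targets alone. AXIN2, the feedback inhibitor that is the most general target of beta-catenin, had 16.6 and 16.7 FPKM in day 5 cells, against 2.53 and 2.33 FPKM in fibroblasts. LEF1, a nuclear partner of beta-catenin, had 6.64 and 7.19 FPKM in day 5 cells, against 0.737 and 0.889 FPKM in fibroblasts, and the feedback inhibitors NKD1 and ZNRF3 averaged 2.51 FPKM in day 5 cells and 0.188 FPKM in fibroblasts for NKD1, and 4.47 FPKM in day 5 cells and 1.23 FPKM in fibroblasts for ZNRF3. WIF1 and FRZB, secreted proteins that bind WNTs, were higher too: WIF1 had 15.02 and 14.9 FPKM in day 5 cells, against 0.0807 and 0.0801 FPKM in fibroblasts. FRZB averaged 11.0 FPKM in day 5 cells and 0.522 FPKM in fibroblasts. Other secreted inhibitors were lower, with SFRP1 at 55.3 and 57.3 FPKM in day 5 cells, against 476 and 478 FPKM in fibroblasts, and SFRP2 and DKK1 averaging 152 FPKM in day 5 cells and 944 FPKM in fibroblasts for SFRP2, and 91.6 FPKM in day 5 cells and 312 FPKM in fibroblasts for DKK1. LGR5, a stem cell receptor for R-spondins and a WNT target in intestine, had 7.25 and 6.95 FPKM in day 5 cells, against 136 and 136 FPKM in fibroblasts. CTNNB1, beta-catenin itself, averaged 136 FPKM in day 5 cells and 147 FPKM in fibroblasts. Among 27 ligand and receptor genes, 5 were higher (18.5%, against 9.37% of all genes) and 5 lower (18.5%, against 8.42% of all genes). The largest increase was that of WNT11, a non-canonical ligand, at 7.60 FPKM in day 5 cells and 0.181 FPKM in fibroblasts.

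Among FGF and ERK feedback genes, 6 of 19 were higher and 2 lower. SPRY2, an inhibitor of receptor signalling, had 32.7 and 31.9 FPKM in day 5 cells, against 10.8 and 11.0 FPKM in fibroblasts. DUSP6, a phosphatase of ERK, had 31.3 and 30.3 FPKM in day 5 cells, against 10.5 and 10.6 FPKM in fibroblasts. ETV4, an ETS factor downstream of FGF receptors, had 26.5 and 27.3 FPKM in day 5 cells, against 7.85 and 7.52 FPKM in fibroblasts. Its relative ETV5 had 20.6 and 20.4 FPKM in day 5 cells, against 9.65 and 9.51 FPKM in fibroblasts, just over the limit with a difference of 1.02. FOSL1, an AP-1 subunit, was lower, with 22.3 and 21.7 FPKM in day 5 cells, against 69.9 and 70.0 FPKM in fibroblasts. The ETS factors ELK1 and ELK3, which ERK activates, averaged 21.1 FPKM in day 5 cells and 20.5 FPKM in fibroblasts for ELK1, and 42.3 FPKM in day 5 cells and 48.4 FPKM in fibroblasts for ELK3. The cells' own FGF2 averaged 14.1 FPKM in day 5 cells and 32.4 FPKM in fibroblasts. FGFR1, the main receptor of fibroblasts, averaged 23.6 FPKM in day 5 cells and 34.1 FPKM in fibroblasts.

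Other growth factor genes were mostly on the lower side, with 15 of 34 lower and 9 higher. VEGFC, a lymphatic growth factor, had 12.6 and 12.7 FPKM in day 5 cells, against 115 and 119 FPKM in fibroblasts. AXL, a receptor kinase of mesenchymal cells, had 17.5 and 17.6 FPKM in day 5 cells, against 127 and 127 FPKM in fibroblasts. IGF2, an imprinted fetal growth factor, was higher, with 94.2 and 95 FPKM in day 5 cells, against 28.0 and 28.4 FPKM in fibroblasts, and so was KITLG, the ligand of KIT, at 22.7 FPKM in day 5 cells and 7.73 FPKM in fibroblasts. ERBB3, a receptor for neuregulins, averaged 5.72 FPKM in day 5 cells and 0.390 FPKM in fibroblasts.

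Epithelial genes moved in both directions. Of 26 epithelial genes described, 12 were higher and 5 lower. Desmosomal genes lay on both sides. PKP2, a plakophilin of simple epithelium and heart, was lower, with 3.09 and 3.30 FPKM in day 5 cells, against 15.3 and 15.1 FPKM in fibroblasts, and PKP3 averaged 0.321 FPKM in day 5 cells and 0.198 FPKM in fibroblasts. PKP1, plakophilin 1, had 18.98 and 18.5 FPKM in day 5 cells and was listed at 0 in fibroblasts. DSC2, desmocollin 2, had 15.2 and 14.8 FPKM in day 5 cells, against 0.119 and 0.148 FPKM in fibroblasts. DSG2, desmoglein 2, had 9.92 and 10.0 FPKM in day 5 cells, against 0.242 and 0.240 FPKM in fibroblasts. DSP, desmoplakin, had 15.5 and 15.6 FPKM in day 5 cells, against 2.16 and 1.95 FPKM in fibroblasts. JUP, plakoglobin, which desmosomes share with adherens junctions, averaged 48.7 FPKM in day 5 cells and 7.998 FPKM in fibroblasts. SFN, an epithelial 14-3-3 protein, averaged 14.1 FPKM in day 5 cells and 0.245 FPKM in fibroblasts. The simple epithelial keratins went the other way. KRT7 had 6.27 and 6.00 FPKM in day 5 cells, against 226 and 229 FPKM in fibroblasts. KRT8 had 37.1 and 36.4 FPKM in day 5 cells, against 255 and 255 FPKM in fibroblasts. EPCAM, a defining surface marker of epithelium, stayed under 1 FPKM, with 0.298 and 0.445 FPKM in day 5 cells, against 0.209 and 0.207 FPKM in fibroblasts.

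Of 12 keratinocyte and squamous genes, 7 were higher and none was lower. KRT17, a keratin of appendages and stressed skin, had 14.2 and 14.3 FPKM in day 5 cells and was listed at 0 in fibroblasts. KRT13, a keratin of mucosal squamous epithelium outside the list, had 23.5 and 23.4 FPKM in day 5 cells and was listed at 0 in fibroblasts. PI3, the elastase inhibitor elafin, had 33.9 and 36.0 FPKM in day 5 cells, against 1.59 and 1.58 FPKM in fibroblasts. SLPI, a related inhibitor, had 35.7 and 37.0 FPKM in day 5 cells, against 4.09 and 4.47 FPKM in fibroblasts. KRT5 and KRT14, the defining pair of basal keratinocytes, stood lower on the FPKM scale on day 5 than KRT17 and were higher than in fibroblasts. KRT5 averaged 2.84 FPKM in day 5 cells and 0.192 FPKM in fibroblasts. KRT14 averaged 4.06 FPKM in day 5 cells and was listed at 0 in fibroblasts. IVL, the envelope protein involucrin, and DSG3, a desmoglein of stratified epithelium, stayed under 1 FPKM. Sequences of keratin genes are similar to each other, so reads could be split between them. Of 5 keratinocyte markers, 2 reached 1 FPKM in day 5 cells and none in fibroblasts, and the part of a few such cells in these values was not tested.

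Neuroepithelial genes passed 2-fold about as often as genes in general. Of 26 genes described, 4 were higher (15.4%, against 9.37% of all genes) and 2 were lower (7.69%, against 8.42% of all genes), with a median of 0.19. PROM1, the surface protein CD133, had 16.1 and 15.99 FPKM in day 5 cells, against 0.553 and 0.512 FPKM in fibroblasts. FABP7, a lipid-binding protein of radial glia, had 14.1 and 14.5 FPKM in day 5 cells, against 0.657 and 0.652 FPKM in fibroblasts. SOX21, a partner and target of SOX2, had 9.73 and 9.55 FPKM in day 5 cells and was listed at 0 in fibroblasts. NES, the intermediate filament nestin, had 98.97 and 99.03 FPKM in day 5 cells, against 59.6 and 59.3 FPKM in fibroblasts, a difference of 0.73. PAX6, a regulator of forebrain progenitors, averaged 0.487 FPKM in day 5 cells and 0.257 FPKM in fibroblasts. SOX1, the earliest neuroectoderm factor, averaged 0.0801 FPKM in day 5 cells and was listed at 0 in fibroblasts. MSI1, an RNA-binding protein of progenitors, averaged 0.123 FPKM in day 5 cells and 0.0865 FPKM in fibroblasts. These 3 factors, with HES5 and LIX1, stayed under 1 FPKM on day 5. EMX2, a homeobox factor of cortex and of some mesenchyme, was lower, at 8.64 FPKM in day 5 cells and 33.1 FPKM in fibroblasts.

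Several structural genes of neurons were higher. Of 33 genes described, 10 were higher (30.3%, against 9.37% of all genes) and 4 lower (12.1%, against 8.42% of all genes). STMN2, a microtubule-destabilising protein of growing axons, had 709 and 702 FPKM in day 5 cells, against 15.1 and 15.3 FPKM in fibroblasts, a difference of 5.45. NEFL, the light neurofilament, had 121 and 119 FPKM in day 5 cells, against 5.78 and 5.47 FPKM in fibroblasts. TUBB3, the neuronal beta-tubulin, had 334 and 334 FPKM in day 5 cells, against 40.8 and 40.4 FPKM in fibroblasts. MAP2, a dendritic microtubule protein, averaged 19.2 FPKM in day 5 cells and 1.80 FPKM in fibroblasts. CRMP1, an axon guidance mediator, averaged 16.2 FPKM in day 5 cells and 1.14 FPKM in fibroblasts. TUBA1A, an alpha-tubulin of young neurons, averaged 653 FPKM in day 5 cells and 397 FPKM in fibroblasts. NEUROG1, NEUROG2 and NEUROD1, factors that start neurogenesis, were listed at 0 in all 4 libraries. DCX, doublecortin, averaged 0.382 FPKM in day 5 cells and 0.564 FPKM in fibroblasts, and ELAVL3, a neuronal RNA-binding protein, was listed at 0. L1CAM, an adhesion protein of axons, was lower, with 3.68 and 3.65 FPKM in day 5 cells, against 39.0 and 38.3 FPKM in fibroblasts. The other lower genes were INA, NCAM1 and SCG2. INA averaged 9.65 FPKM in day 5 cells and 25.1 FPKM in fibroblasts. NCAM1 averaged 13.7 FPKM in day 5 cells and 32.6 FPKM in fibroblasts, and SCG2 averaged 1.57 FPKM in day 5 cells and 4.33 FPKM in fibroblasts.

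**Figure D4:**
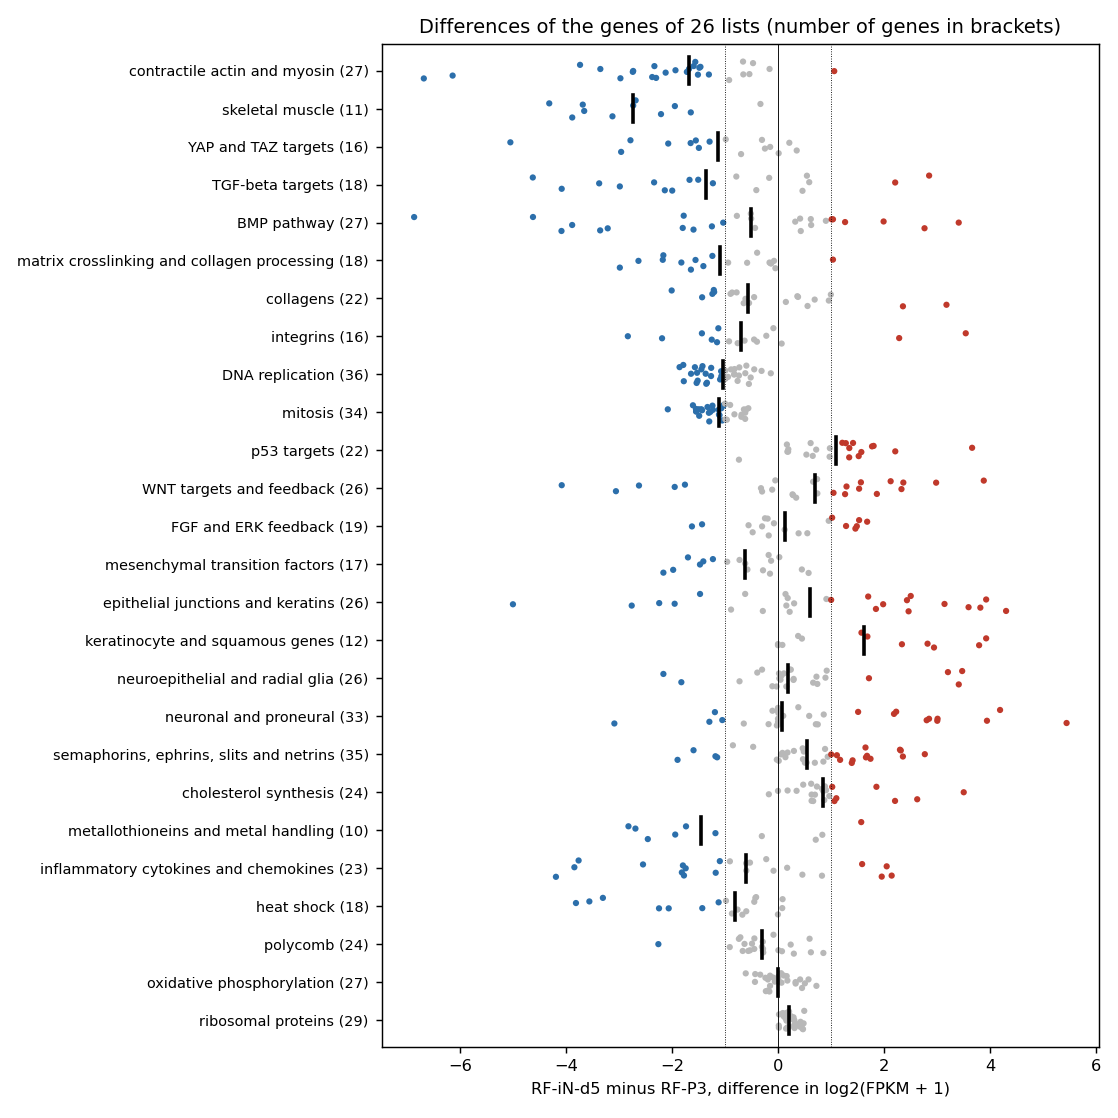
Difference in log2(FPKM + 1), RF-iN-d5 minus RF-P3, of each described gene of 26 lists, with the median of a list as a black bar, dotted lines at the 2-fold limits, and genes past them in red (higher) or blue (lower). The contractile, muscle, replication and mitosis lists lie to the left, the p53 and squamous lists lie to the right, and oxidative phosphorylation and ribosomal proteins stay within the limits.

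Axon guidance genes were often higher, with 13 of 35 higher, 4 lower and a median of 0.54. NRP2, a receptor for semaphorins and VEGF, had 83.8 and 83.1 FPKM in day 5 cells, against 16.2 and 16.03 FPKM in fibroblasts. EPHB6, an ephrin receptor without kinase activity, had 20.9 and 21.3 FPKM in day 5 cells, against 2.25 and 2.24 FPKM in fibroblasts. EFNB1, an ephrin ligand, had 30.6 and 30.5 FPKM in day 5 cells, against 5.48 and 5.19 FPKM in fibroblasts. SEMA7A, a membrane semaphorin, was lower, with 22.3 and 22.4 FPKM in day 5 cells, against 85.7 and 86.1 FPKM in fibroblasts. Of 25 adhesion genes, 10 were lower and 6 higher. NRCAM, a neural relative of L1CAM, averaged 23.7 FPKM in day 5 cells and 0.997 FPKM in fibroblasts. MCAM, an adhesion protein of vessels, averaged 3.81 FPKM in day 5 cells and 21.5 FPKM in fibroblasts. Endothelial genes gave a mixed list. Of 6 described, 3 were higher (50%, against 9.37% of all genes) and 1 was lower (16.7%, against 8.42% of all genes). TEK, the angiopoietin receptor, had 27.2 and 27.0 FPKM in day 5 cells, against 1.49 and 1.57 FPKM in fibroblasts. KDR (3.42 FPKM in day 5 cells and 0.201 FPKM in fibroblasts) and CDH5 (1.06 and 0 FPKM) were higher too. PECAM1 (1.47 and 0.256 FPKM) fell short of 2-fold, and FLT1 (5.63 and 22.8 FPKM) was lower. CD34, a sialomucin of vessels and fibroblast progenitors, had 100.3 and 100 FPKM in day 5 cells, against 4.16 and 4.29 FPKM in fibroblasts, whereas the defining gene VWF averaged 0.193 FPKM in day 5 cells and 0.748 FPKM in fibroblasts. TIE1, another defining gene, averaged 0.0414 FPKM in day 5 cells and was listed at 0 in fibroblasts.

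Of 20 Notch genes, 5 were higher (25%, against 9.37% of all genes), 2 lower (10%, against 8.42% of all genes) and 13 between. JAG1, a ligand, had 15.7 and 15.9 FPKM in day 5 cells, against 0.874 and 0.893 FPKM in fibroblasts. HES6, a modulator of HES1, averaged 15.1 FPKM in day 5 cells and 1.11 FPKM in fibroblasts, and RBPJ, the nuclear effector, was lower and averaged 16.9 FPKM in day 5 cells and 50.4 FPKM in fibroblasts. HHIP, a hedgehog-binding inhibitor, had 7.60 and 7.53 FPKM in day 5 cells, against 0.0574 and 0.0570 FPKM in fibroblasts. It was the 1 higher gene of 11 in the hedgehog pathway (9.09%, against 9.37% of all genes). GLI1, the usual read-out of that pathway, averaged 1.64 FPKM in day 5 cells and 0.865 FPKM in fibroblasts.

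Genes of sterol synthesis were on the higher side. Of 24 described, 7 were higher, none was lower and 17 lay between, with a median of 0.84. MVD, the mevalonate decarboxylase, had 189 and 189 FPKM in day 5 cells, against 40.6 and 39.6 FPKM in fibroblasts. HMGCS1, which makes the HMG-CoA of the pathway, had 335 and 333 FPKM in day 5 cells, against 91.7 and 91.2 FPKM in fibroblasts. TM7SF2, a sterol reductase, had 26 and 26.7 FPKM in day 5 cells, against 1.31 and 1.51 FPKM in fibroblasts. In fatty acid synthesis, 2 of 14 were higher (14.3%, against 9.37% of all genes). ACSS2, an acetyl-CoA synthetase, was 1 of them and averaged 41.0 FPKM in day 5 cells and 7.00 FPKM in fibroblasts. ABCA1, a cholesterol exporter that sterol-sensing LXR factors induce, was higher as well, with 14.7 and 14.5 FPKM in day 5 cells, against 1.15 and 1.10 FPKM in fibroblasts.

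Detoxification and retinoid genes contained large changes in both directions. ALDH3A1, an aldehyde dehydrogenase of cornea and stomach, had 69.9 and 67.6 FPKM in day 5 cells, against 0.320 and 0.318 FPKM in fibroblasts. CYP1B1 and CYP1A1, oxidases that the aryl hydrocarbon receptor induces, were higher, with CYP1B1 at 67.6 and 67.5 FPKM in day 5 cells, against 10.7 and 10.6 FPKM in fibroblasts, and CYP1A1 averaging 3.74 FPKM in day 5 cells and 0.0613 FPKM in fibroblasts. AHRR, the repressor of that receptor, was lower, at 2.68 FPKM in day 5 cells and 12.3 FPKM in fibroblasts. Of 17 retinoic acid genes, 5 were higher and 5 lower. The retinoic acid-making enzymes differed: ALDH1A3 had 6.16 and 6.30 FPKM in day 5 cells, against 81.1 and 79.6 FPKM in fibroblasts. ALDH1A2 averaged 7.76 FPKM in day 5 cells and 57.2 FPKM in fibroblasts. ALDH1A1 averaged 7.69 FPKM in day 5 cells and 0.235 FPKM in fibroblasts. RARB, a receptor that retinoic acid induces, averaged 10.3 FPKM in day 5 cells and 1.05 FPKM in fibroblasts. CRABP2, a retinoic acid carrier, averaged 82.2 FPKM in day 5 cells and 444 FPKM in fibroblasts.

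Iron and metal storage genes were among the abundant decreases. FTH1, the ferritin heavy chain, had 917 and 914 FPKM in day 5 cells, against 4964 and 4973 FPKM in fibroblasts. FTL, the light chain, had 584 and 579 FPKM in day 5 cells, against 2356 and 2367 FPKM in fibroblasts. TFRC, the transferrin receptor, was lower as well, with 47.2 and 46.8 FPKM in day 5 cells, against 183 and 183 FPKM in fibroblasts. The metallothioneins MT2A, MT1E, MT1M and MT1X, which bind zinc and copper, were lower, with MT2A at 229 and 230.5 FPKM in day 5 cells, against 769 and 766 FPKM in fibroblasts, while MT1A averaged 1.97 FPKM in day 5 cells and was listed at 0 in fibroblasts, and the near-identical MT1 genes may share reads. NQO1, a quinone reductase and NRF2 target, averaged 16.6 FPKM in day 5 cells and 54.7 FPKM in fibroblasts. Of 22 NRF2 targets, 4 were lower (18.2%, against 8.42% of all genes), 1 was higher and 17 lay between.

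Of 23 inflammatory genes, 10 were lower and 4 higher. IL6, a cytokine of the acute phase, had 0.452 and 0.449 FPKM in day 5 cells, against 25.7 and 25.3 FPKM in fibroblasts. IL1B, interleukin 1 beta, was listed at 0 in day 5 cells and had 13 and 13.7 FPKM in fibroblasts. CXCL12, a chemokine of stromal cells, had 0.236 and 0.235 FPKM in day 5 cells, against 15.9 and 15.7 FPKM in fibroblasts. The neutrophil chemokine CXCL8 was higher, with 18.3 and 18.8 FPKM in day 5 cells, against 3.44 and 3.41 FPKM in fibroblasts. Among 25 interferon-stimulated genes, 3 were higher (12%, against 9.37% of all genes) and 4 lower (16%, against 8.42% of all genes). TRIM22, an antiviral ligase, averaged 24.0 FPKM in day 5 cells and 3.83 FPKM in fibroblasts. IFIT1, an antiviral RNA-binding protein, averaged 0.240 FPKM in day 5 cells and 3.17 FPKM in fibroblasts. APOBEC3C, a cytidine deaminase that restricts retroviruses, had 154 and 156 FPKM in day 5 cells, against 4.40 and 3.49 FPKM in fibroblasts, and its reads may be shared with the other APOBEC3 genes. Of 18 heat shock genes, 7 were lower, led by the small chaperones of muscle HSPB7, HSPB6 and CRYAB, with CRYAB at 3.44 and 3.65 FPKM in day 5 cells, against 44.4 and 43.4 FPKM in fibroblasts. SLC2A1, the glucose transporter GLUT1, was higher, with 178 and 178 FPKM in day 5 cells, against 31.2 and 31.9 FPKM in fibroblasts, although 6 of 16 hypoxia targets were lower.

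Several groups stayed within the limits. None of 27 genes of oxidative phosphorylation, 29 ribosomal protein genes or 26 ribosome biogenesis genes was past 2-fold in either direction, and their medians were 0.00, 0.21 and -0.05, the first and last of which changed sign with another scaling. Of 34 lysosome genes, 1 was lower and none higher. HDAC1 and HDAC2, targets of valproic acid, averaged 79.8 FPKM in day 5 cells and 68.7 FPKM in fibroblasts for HDAC1, and 176 FPKM in day 5 cells and 145 FPKM in fibroblasts for HDAC2, and of 12 deacetylase genes only HDAC5 passed 2-fold, at 3.68 FPKM in day 5 cells and 19.9 FPKM in fibroblasts. Of 24 polycomb genes, PHF19, an accessory subunit, was lower, at 2.38 FPKM in day 5 cells and 15.2 FPKM in fibroblasts. EZH2, the methyltransferase, averaged 26.3 FPKM in day 5 cells and 37.3 FPKM in fibroblasts. TRIM28, a corepressor that silences endogenous retroviruses, had 87.7 and 88.3 FPKM in day 5 cells, against 155 and 154 FPKM in fibroblasts, a difference of -0.80, short of 2-fold. NME2, a nucleoside diphosphate kinase, averaged 811 FPKM in day 5 cells and 876 FPKM in fibroblasts. Of 24 HOX genes, 21 lay between the limits, as did 82.2% of all genes. DNA methylation genes, by contrast, did not stay within the limits. Of 14 described, 3 were higher (21.4%, against 9.37% of all genes) and 4 lower (28.6%, against 8.42% of all genes). The largest increase was that of GADD45A, also counted among the p53 targets. The largest decrease was that of UHRF1, also counted among the DNA replication genes. DNMT1, the maintenance methyltransferase, averaged 25.2 FPKM in day 5 cells and 59.2 FPKM in fibroblasts. TET3, a demethylating oxidase, averaged 11.0 FPKM in day 5 cells and 3.12 FPKM in fibroblasts.

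Other named genes among the 25 largest changes in each direction were of many kinds. On the higher side, CHL1, an adhesion protein of neurons related to L1CAM, had 26.3 and 25.8 FPKM in day 5 cells, against 0.0406 and 0.0202 FPKM in fibroblasts. S100A16, a calcium-binding protein, had 278 and 276 FPKM in day 5 cells, against 11.3 and 10.9 FPKM in fibroblasts. BCAM, a laminin receptor of the blood group system Lutheran, had 34.8 and 35.4 FPKM in day 5 cells, against 0.667 and 0.596 FPKM in fibroblasts. VSNL1, a calcium sensor of neurons, averaged 27.1 FPKM in day 5 cells and 0.316 FPKM in fibroblasts. TPPP3, a tubulin-associated protein, averaged 37.9 FPKM in day 5 cells and 0.823 FPKM in fibroblasts. F11R, the tight junction protein JAM-A, averaged 26.2 FPKM in day 5 cells and 0.358 FPKM in fibroblasts. PODXL, podocalyxin, a sialomucin of kidney and of pluripotent cells, averaged 63.6 FPKM in day 5 cells and 2.28 FPKM in fibroblasts. UCP2, a mitochondrial carrier, averaged 40.8 FPKM in day 5 cells and 1.07 FPKM in fibroblasts. AIF1L, an actin-bundling protein, averaged 61.3 FPKM in day 5 cells and 2.12 FPKM in fibroblasts. DSC3, desmocollin 3, averaged 24.6 FPKM in day 5 cells and 0.252 FPKM in fibroblasts. KRTAP3-1, a keratin-associated protein of hair, had 21.4 and 21.3 FPKM in day 5 cells and was listed at 0 in fibroblasts. CLEC3B, the plasminogen-binding protein tetranectin, had 22.1 and 20.3 FPKM in day 5 cells and was listed at 0 in fibroblasts. TMEM163, a zinc transporter of vesicles, averaged 20.8 FPKM in day 5 cells and 0.0847 FPKM in fibroblasts.

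On the lower side, CEMIP, a protein that degrades hyaluronan, had 14.5 and 14.5 FPKM in day 5 cells, against 336 and 332 FPKM in fibroblasts. IL1RL1, the receptor of interleukin 33, had 0.506 and 0.464 FPKM in day 5 cells, against 31.9 and 31.7 FPKM in fibroblasts. TFPI2, a protease inhibitor of the matrix, had 1.19 and 1.12 FPKM in day 5 cells, against 39.3 and 39.0 FPKM in fibroblasts. PLAC8, a small cysteine-rich protein of placenta and leukocytes, averaged 0.448 FPKM in day 5 cells and 81.0 FPKM in fibroblasts. ATOH8, a basic helix-loop-helix factor, averaged 0.548 FPKM in day 5 cells and 34.0 FPKM in fibroblasts. GDA, guanine deaminase, averaged 1.05 FPKM in day 5 cells and 44.9 FPKM in fibroblasts. KCNMB1, a potassium channel subunit of smooth muscle, averaged 0.414 FPKM in day 5 cells and 25.5 FPKM in fibroblasts. SAMD11 and C20H16orf74, named here without a role, averaged 0.334 FPKM in day 5 cells and 52.2 FPKM in fibroblasts for SAMD11, and 1.55 FPKM in day 5 cells and 38.4 FPKM in fibroblasts for C20H16orf74. CEMIP alone of these 9 genes was above 2 FPKM on day 5.

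Genes listed at 0 in 1 line give no fold. In all, 49 loci were listed at 0 in both libraries of fibroblasts and at 5 FPKM or more in both of day 5 cells, of which 17 had only a LOC symbol, and 11 loci showed the reverse, of which 6 had only a LOC symbol. The highest of the first kind were AZGP1, a secreted zinc-binding glycoprotein, with 70.4 and 72.7 FPKM in day 5 cells, and SCARA5, a ferritin-binding scavenger receptor, with 29.7 and 29.8 FPKM in day 5 cells. PTHLH, parathyroid hormone-like hormone, and TRH, thyrotropin-releasing hormone, had 17.8 and 18.8 FPKM (PTHLH) and 18.1 and 17.9 FPKM (TRH) in day 5 cells and were listed at 0 in fibroblasts. Of the reverse kind, SST, the hormone somatostatin, and FGF1 had 11.9 and 10.8 FPKM (SST) and 6.93 and 6.88 FPKM (FGF1) in fibroblasts and were listed at 0 in day 5 cells.

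By level rather than by fold, the largest decreases were those of a few very abundant genes. These were chosen after their values were seen. TMSB4X and TMSB10, thymosins that bind free actin, averaged 2862 FPKM in day 5 cells and 10849 FPKM in fibroblasts for TMSB4X, and 2305 FPKM in day 5 cells and 6660.3 FPKM in fibroblasts for TMSB10. ACTB and ACTG1, the cytoplasmic actins, averaged 1379 FPKM in day 5 cells and 4959 FPKM in fibroblasts for ACTB, and 1791 FPKM in day 5 cells and 4287 FPKM in fibroblasts for ACTG1. Over these 4 genes and FTH1 the summed level dropped by 22472 FPKM in day 5 cells, while the totals of all loci, increases included, differed by 83918 FPKM. ACTB and PPIA, at 1712 FPKM in day 5 cells and 3426 FPKM in fibroblasts, are often used as reference genes, and both were lower here. On the other side, S100A6, a calcium-binding protein, averaged 3820.3 FPKM in day 5 cells and 1973 FPKM in fibroblasts. GSN, the actin-severing protein gelsolin, averaged 690.5 FPKM in day 5 cells and 63.0 FPKM in fibroblasts.

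Beside the later lines, the day 5 levels fell into several patterns, given here for genes chosen after their values were seen and without a test. The later lines are the day 11 cells (RF-iN-d11), the stem cell line at passage 6 (CHIR-P6) and at passage 23 (CHIR-P23), and the stem cells C8-P7 and A9-P7. KRT7 averaged 228 FPKM in fibroblasts, 6.13 FPKM on day 5, 1.13 FPKM on day 11 and under 0.1 FPKM in the 4 stem cell lines. STMN2 was highest on day 5 among the 7 lines, with 705 FPKM there, 537 FPKM on day 11, 39.1 FPKM for CHIR-P6, 9.87 FPKM for CHIR-P23, 7.00 FPKM for C8-P7 and 5.98 FPKM for A9-P7. CD34 was also highest on day 5 and was under 1 FPKM in the 4 stem cell lines. SOX2 stayed between 67.1 and 109 FPKM from day 5 on. PAX6, by contrast, was under 1 FPKM on day 5 and averaged 1.23 FPKM on day 11, 2.25 FPKM for CHIR-P6, 16.7 FPKM for CHIR-P23, 32.5 FPKM for C8-P7 and 33.6 FPKM for A9-P7. ID2, low on day 5, averaged 16.3 FPKM on day 11, 67.4 FPKM for CHIR-P6, 22.7 FPKM for CHIR-P23, 10.5 FPKM for C8-P7 and 13.6 FPKM for A9-P7.

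**Figure D5:**
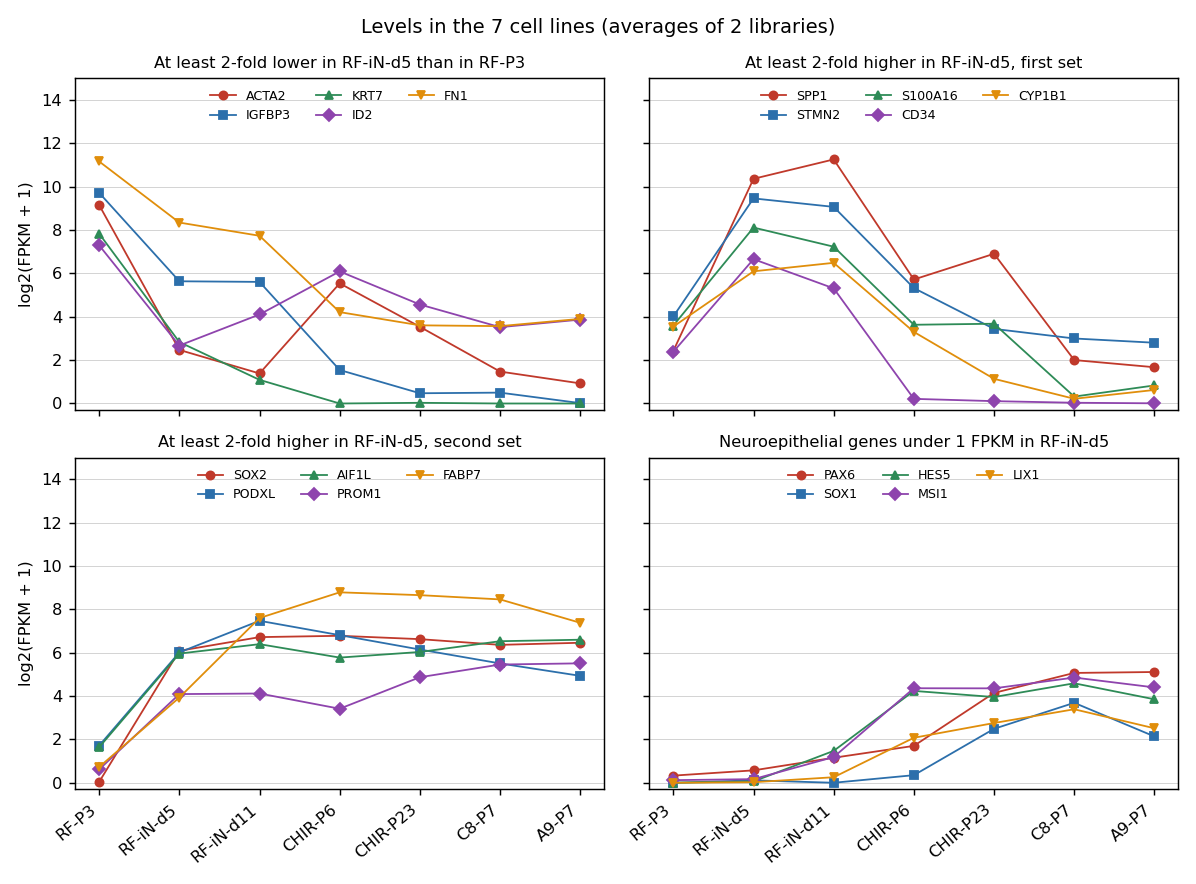
Levels of 20 genes in the 7 cell lines in the order of the conversion, as log2(FPKM + 1) of the average of 2 libraries, in 4 panels. PAX6, SOX1, HES5, MSI1 and LIX1 are under 1 FPKM in RF-iN-d5, where SPP1, STMN2, S100A16 and CD34 are far above their RF-P3 levels.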

How the data were processed

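The libraries were made from rRNA-depleted total RNA and sequenced on an Illumina HiSeq. Per the labels and the submitters' processing notes, the authors aligned reads with HISAT2 2.1.0 to the rhesus build Mmul_8.0.1 and used Cufflinks 2.2.1 and Cuffnorm 2.2.1, and the deposited values are FPKM per gene locus and library. The strand setting of the counting is not given in the sources used here, so reads of overlapping or antisense genes may be shared.

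The table has 33737 loci. In data rows 1202 to 29646 each gene name stands beside the values of the gene named in the row above, so each name was given the values of the next row, and 49 rows left without their own values were dropped. The shift was checked on group averages that the study tabulated by gene name: of 1597 genes, 144 (9.02%) matched within 0.3 on the log2 scale as deposited, and 1453 (91.0%) matched after the move. Of 478 small RNA genes in the moved stretch, 43.7% were over 1 FPKM as deposited and 3.14% were after the move.

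The low FPKM values were whole multiples of 1 read within a tolerance of 0.1, which gave the relative depth of the lines and the spread that sampling alone would give. In every line the squared difference between both libraries was 0.0967 to 0.111 of its sampling expectation, so both were averaged and counted as 1 sample, and no paired, permutation or model test was run. Depth in reads is not given for each library. The study describes both libraries of each line as biological replicates, but independent cultures would differ by at least the sampling noise, and the labels name no separate culture or fetus for either library.

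Differences were taken on log2(FPKM + 1), with a filter of 1 FPKM in 2 of 14 libraries, in Python 3.11.15 with NumPy 2.4.6, pandas 2.3.3 and Matplotlib 3.10.9. The counting was tested on simulated data. Alternatives were pseudocounts, filters, scalings, fold limits, single libraries and the rows as deposited or outside the moved stretch. Genes named are the 25 largest changes in each direction among genes of at least 20 FPKM with a name, up to 10 members of each of 78 lists and further members by role, genes at 0 in 1 line, and genes that the study names. A few genes that this rule names are not reported here. The members and lists were chosen with earlier results of these data known. In all, 131 described loci shared their symbol with another described locus, and the lists used the most abundant locus of such a symbol. A search of promoters for motifs was not run, since promoter sequences were not used here.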

Additional observations from a re-analysis of the deposited data

How the results depend on the processing

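No paired analysis was possible because each line counted as 1 sample and no result comes from a test. The count of genes at least 2-fold higher was 2390 with a pseudocount of 0.1 FPKM, 494 with 5 FPKM, 2781 at a 1.5-fold limit, 395 at 4-fold and 185 outside the realigned stretch, where few genes lie, against 1408 in the main setting. The count of genes lower was 668 with a pseudocount of 5 FPKM, 2717 at 1.5-fold, 277 at 4-fold and 128 outside the stretch, against 1265. Quantile normalization gave 1228 higher and 1289 lower. The median difference of all genes was -0.051 with a filter of 5 FPKM, 0.14 with equal FPKM totals and 0.0197 outside the stretch. Leaving out 1 library gave 1402 to 1415 genes higher and 1264 to 1284 lower, with the median at 0. The names as deposited gave 1410 and 1266 genes, since a shift of names does not alter counts, but single genes and lists got no value under that setting.

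Of 217 named genes past 2-fold, 7 were under it after quantile normalization, 6 with equal totals and 22 with a pseudocount of 5 FPKM, and none changed sign under these settings. Of 13 lists with a median past 2-fold, 3, 4 and 8 were under it in the same settings and 5 without a filter, while 6 other lists passed it with a pseudocount of 0.1 FPKM and 7 with a filter of 5 FPKM. The median of ribosome biogenesis genes was -0.05, and 0.18 after quantile normalization. Equal totals turned the medians of the Notch (-0.02), histone deacetylase (-0.01) and TGF-beta ligand and receptor lists (-0.09) above 0. The promoter motif alternative was not run. Low genes are limited by depth, which is not given in reads for each library.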
